A study of Arabidopsis thaliana with 6 samples.

Results

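The cysteine-rich receptor-like kinases (CRK) of Arabidopsis thaliana were examined as a family. Its 42 loci, numbered CRK1 to CRK42 with AT4G11500 among them, were taken from a fixed list of locus identifiers, and the expression table of 24487 genes held 37 of them. Of these, 26 reached a mean of 10 normalized counts over the 6 libraries and were tested among 20222 genes in all. RNA came from dark-grown seedlings at 4 days of age, raised at 22 °C without light once the seeds had been kept cold at 4 °C. There were 3 libraries labelled atino80-6, a mutant line, and 3 libraries of wild type, with the same growth labels. What kind of allele atino80-6 is and how many plants went into a library are not stated. No label ties the replicates to separate cultures, and the spread that the p-values measure may therefore be technical.

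CRK proteins carry cysteine-rich DUF26 domains outside the cell, a single membrane-spanning stretch and a serine/threonine kinase inside it. Many CRK genes are known to be induced by salicylic acid, pathogens and reactive oxygen, and several act beside pattern-recognition receptors in immunity, in control of cell death and in stomatal and salt responses. Most of the family lies on chromosome 4, which holds 37 of the members, and 20 of them form an array from AT4G23130 (CRK5) to AT4G23320 (CRK24) with 3 other annotated loci among them. INO80 is the ATPase of a chromatin remodelling complex that slides nucleosomes and acts on the histone variant H2A.Z.

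CRK transcripts were mostly lower in the libraries labelled atino80-6. Of the 26 tested members, 17 fell and 2 rose at a limma adjusted p below 0.05 over all tested genes, and 7 did not pass. Among all tested genes 16.6% fell and 17.7% rose, 34.2% in either direction. The median log2 change was -1.03 over the tested members and 0.00 (0.0004) over all tested genes. In 13 members the fall was at least 2-fold between group means, against 5.34% of all tested genes. The groups did not overlap in 17 members with the libraries labelled atino80-6 below wild type, against 24.2% of all tested genes, and in 2 members with them above, against 24.1%, or 48.3% in either direction. CRK5 and CRK31 are counted in the 17 falls, in the 13 of at least 2-fold, in the 17 without overlap and in the median of -1.03. Both reached the minimum mean through wild type alone, so a difference was built into their selection. Among the 24 members with both group means of at least 10, 15 fell and 2 rose, where 16.2% of such genes fell. The median log2 change of these 24 members was -0.84. Summed over the 37 listed members, the libraries labelled atino80-6 held between 9308 and 10870.4 normalized counts, and wild type held between 14812 and 15256. A few members weigh heavily in that sum, and CRK19 alone averaged 2810 normalized counts in atino80-6-labelled libraries and 4370 in wild type. In seedling RNA, fewer cells that express a gene and less RNA per cell cannot be told apart.

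INO80 itself held 28174, 33013 and 33322 normalized counts in atino80-6-labelled libraries, against 5586, 6173 and 5758 in wild type, 5.40-fold higher, with a log2 change of 2.43 ± 0.10 (limma adjusted p = 2.8e-06). Reads counted for the whole gene were thus not reduced in the libraries labelled atino80-6. Such a count does not show whether the transcript is intact, and the directions below rest on the labels as deposited. The libraries held between 18446028 and 24156610 reads. In atino80-6 3 the value was the highest of its group in 62.7% of all genes that fell, and wild type 1 had the highest sum of early induced stress genes. Without both of these libraries 16 CRK members fell and 2 rose, with a median log2 change of -1.03, CRK5 and CRK31 included.

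The 18 root markers and 10 shoot markers examined all had rows, and 3 root markers were below the minimum mean, of which IRT1 was at 0 in some libraries. Of 15 tested root markers 1 fell (SCR) and 1 rose (PYK10), with a median log2 change of -0.10, and of 10 shoot markers 2 fell and 2 rose, with a median of -0.09. Among all tested genes 16.6% fell and 17.7% rose. Summed root markers ranged from 101959 to 114530.4 normalized counts in atino80-6-labelled libraries and from 74361 to 79808 in wild type, most of it PYK10, a beta-glucosidase of roots and hypocotyls, with means of 102722 and 70309.7. Summed shoot markers ranged from 23894 to 27475 normalized counts in atino80-6-labelled libraries and from 28099.8 to 30385 in wild type. PORA and PORB, the chlorophyll synthesis genes of etiolated cotyledons, did not pass, with sums of 11782 to 17763 and 10925 to 15295 for the same groups. The part of tissue make-up in the CRK result was not tested.

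**Figure D1:**
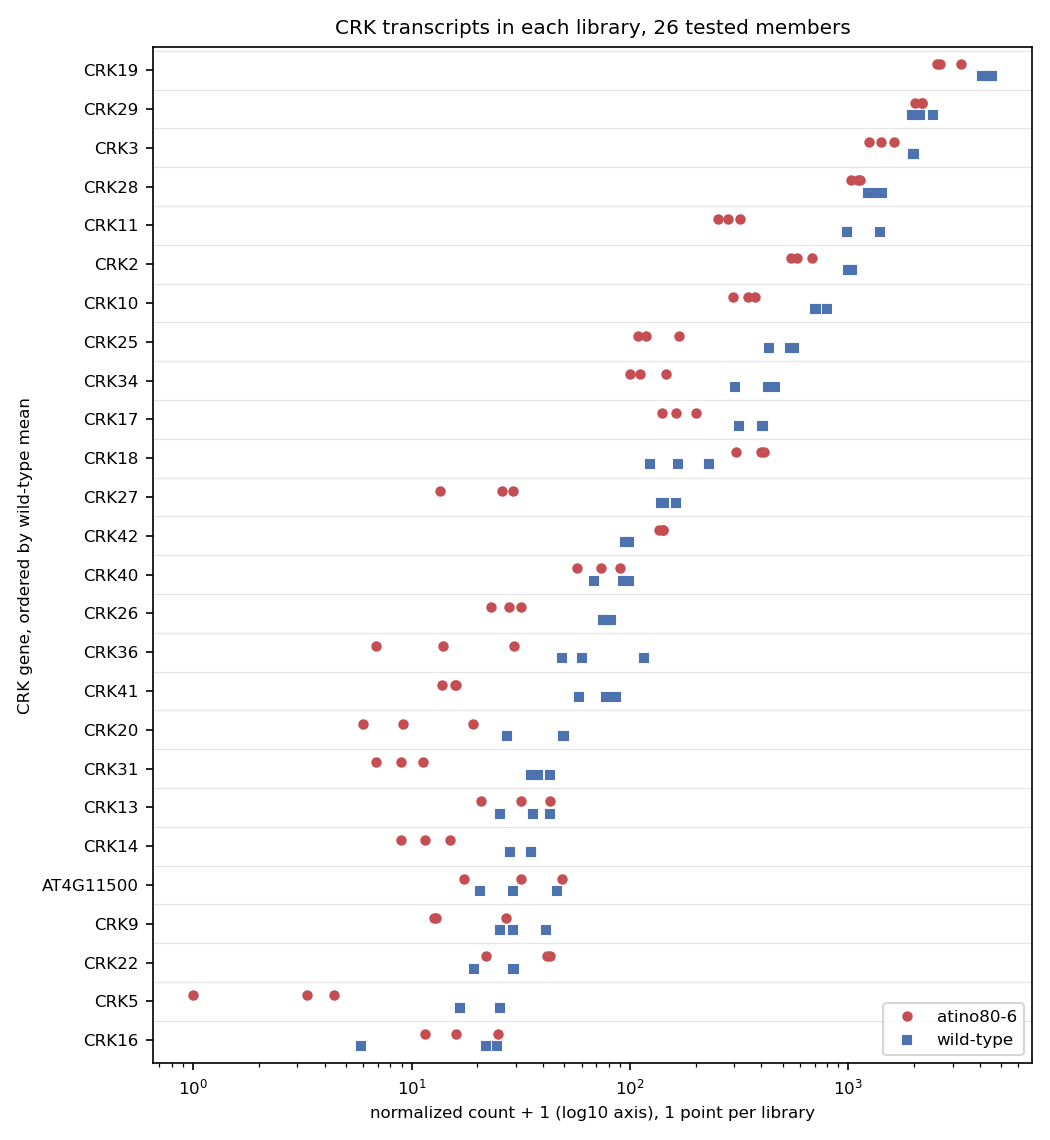
Normalized counts plus 1 on a log10 axis for the 26 tested CRK genes, ordered by their wild type mean, with 1 point per library (circles, libraries labelled atino80-6; squares, wild type). In 17 genes every circle lies left of every square, and in CRK18 and CRK42 every circle lies right of every square.

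WRKY transcription factors, many of them induced by salicylic acid and pathogens, bind the W-box, whose core is TTGAC. Because most members moved together, the window from 250 bases before to 50 bases after each annotated gene start was read from the RefSeq assembly TAIR10.1. TTGAC on either strand occurred in 31 of the 41 protein-coding CRK promoters (75.6%, 95% Wilson interval 60.7 to 86.2), against 50.5% of 27438 protein-coding genes. It occurred in 14 of the 17 members that fell, in 2 of the 2 that rose and in 3 of 6 that did not pass. TTGAC also occurred in 8 of 11 members below the minimum mean and in 4 of 5 with no row, so it was present in members of each outcome. TGACG, the core bound by TGA factors, which overlaps TTGAC where the letters TTGACG occur, was found on either strand in 15 of the 41 (36.6%, 23.6 to 51.9) and in 23.1% of all. The G-box CACGTG was found in 1 (2.44%, 0.432 to 12.6), CRK41, and in 7.68% of all. A match is a run of letters, not a bound site. The intervals treat promoters as independent, although members of a family, many of them neighbours, may share sequence. The difference from all genes was not tested. The 4 windows below run 5′ to 3′ along the coding strand, with TTGAC and its reverse complement GTCAA in capitals. CRK11 had the most cores of any member (7) and fell, CRK41 had 4 and fell, CRK18 had 3 and rose, and CRK2 had 0 and fell. CRK41 is encoded on the plus strand and the other members shown on the minus strand.
CRK11: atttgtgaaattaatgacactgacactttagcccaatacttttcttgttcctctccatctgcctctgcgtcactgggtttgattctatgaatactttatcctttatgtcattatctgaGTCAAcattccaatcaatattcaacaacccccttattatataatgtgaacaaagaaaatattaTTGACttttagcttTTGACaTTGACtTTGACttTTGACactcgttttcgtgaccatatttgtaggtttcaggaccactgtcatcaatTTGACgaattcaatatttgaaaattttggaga
CRK41: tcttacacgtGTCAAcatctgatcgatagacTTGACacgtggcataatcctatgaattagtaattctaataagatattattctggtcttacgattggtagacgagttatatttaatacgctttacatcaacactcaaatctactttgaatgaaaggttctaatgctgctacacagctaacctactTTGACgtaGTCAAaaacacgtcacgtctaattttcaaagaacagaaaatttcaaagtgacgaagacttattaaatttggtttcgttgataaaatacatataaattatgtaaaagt
CRK18: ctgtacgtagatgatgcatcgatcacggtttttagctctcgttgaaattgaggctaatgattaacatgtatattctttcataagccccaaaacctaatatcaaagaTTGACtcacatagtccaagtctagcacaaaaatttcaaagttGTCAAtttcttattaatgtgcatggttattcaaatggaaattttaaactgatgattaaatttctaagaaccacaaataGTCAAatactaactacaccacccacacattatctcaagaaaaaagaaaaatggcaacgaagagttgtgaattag
CRK2: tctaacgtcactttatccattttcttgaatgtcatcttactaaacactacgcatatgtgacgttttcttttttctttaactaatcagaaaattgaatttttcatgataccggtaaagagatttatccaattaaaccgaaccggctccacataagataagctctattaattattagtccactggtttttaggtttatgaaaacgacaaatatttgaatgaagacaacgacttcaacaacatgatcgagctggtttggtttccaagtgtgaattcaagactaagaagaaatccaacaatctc

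In the chromosome 4 array, 18 of the 20 members were listed and 12 were tested. Of these, 7 fell, 1 rose and 4 did not pass, with a median log2 change of -1.03, where 16.6% of all tested genes fell and 17.7% rose. The 7 falls and the median include CRK5, which reached the minimum mean through wild type alone. CRK11, known to be induced by salicylic acid and oxidative stress, held 279, 253 and 319 normalized counts in atino80-6-labelled libraries, against 1399, 982 and 980.4 in wild type. All 3 libraries labelled atino80-6 lay below every wild type library, 3.95-fold lower in the mean, with a log2 change of -1.96 ± 0.15 (limma adjusted p = 3.6e-05). Its neighbour CRK10, of which an overactive form is known to collapse xylem vessels, held 294, 348 and 371 normalized counts in atino80-6-labelled libraries, against 799, 711 and 705 in wild type. The groups were again apart, 2.19-fold in the mean, with a log2 change of -1.13 ± 0.11 (limma adjusted p = 0.00012). The ends of CRK10 and CRK11 overlap by 32 bases on opposite strands, and the strandedness of the counting is not stated.

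CRK19 gave the highest level of the family, and its induced expression is known to trigger cell death of the hypersensitive type. It held 2535, 2615 and 3279.8 normalized counts in atino80-6-labelled libraries, against 4106, 4547 and 4457 in wild type. The fall was 1.56-fold, with a log2 change of -0.65 ± 0.11 (limma adjusted p = 0.0021). CRK20, the next member of the array, known for the same effect, held 8.18, 4.98 and 18.2 normalized counts in atino80-6-labelled libraries, against 49, 26.4 and 48.1 in wild type. Those values did not overlap and differed 3.94-fold, although atino80-6 3 came near wild type 2 (log2 change -2.00 ± 0.48, limma adjusted p = 0.012), and the call was lost without wild type 3 (limma adjusted p = 0.052). Without atino80-6 3 the fold for CRK20 was 6.26. CRK5, whose loss is known to speed senescence, held 2.34, 0 and 3.41 normalized counts in atino80-6-labelled libraries, against 15.7, 24.4 and 15.7 in wild type. With 5 reads in the libraries labelled atino80-6 together, the fold of 9.72 and the log2 change of -2.97 ± 0.65 rest on few counts. A pseudocount of 5 gave -1.79. CRK5 reached the minimum mean through wild type alone, so a difference was built into its selection and no p-value is given for it. Without atino80-6 3, CRK5 had 2 reads against 61, a 17.1-fold lower level (exact 95% interval 4.54 to 145, counting error only).

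CRK17, also named EMB1290, held 199.8, 161 and 139 normalized counts in atino80-6-labelled libraries, against 406, 313 and 403 in wild type. That was 2.25-fold lower, with a log2 change of -1.17 ± 0.17 (limma adjusted p = 0.00088). Its gene model overlaps that of CRK16 by 1190 bases on the same strand, so reads of the pair may be shared. CRK14 held 10.5, 13.9 and 7.97 normalized counts in atino80-6-labelled libraries, against 34.1, 27.3 and 34.1 in wild type. The libraries labelled atino80-6 were all below wild type, 2.95-fold in the mean (log2 change -1.50 ± 0.32, limma adjusted p = 0.0076). CRK18, between CRK17 and CRK19, moved the other way and held 304, 410.4 and 395 normalized counts in atino80-6-labelled libraries, against 229, 123 and 164 in wild type. All libraries labelled atino80-6 were above wild type, 2.15-fold in the mean, with a log2 change of 1.13 ± 0.22 (limma adjusted p = 0.0048). The array therefore held a riser between members that fell, and 4 tested members, CRK9, CRK13, CRK16 and CRK22, whose groups overlapped.

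**Figure D2:**
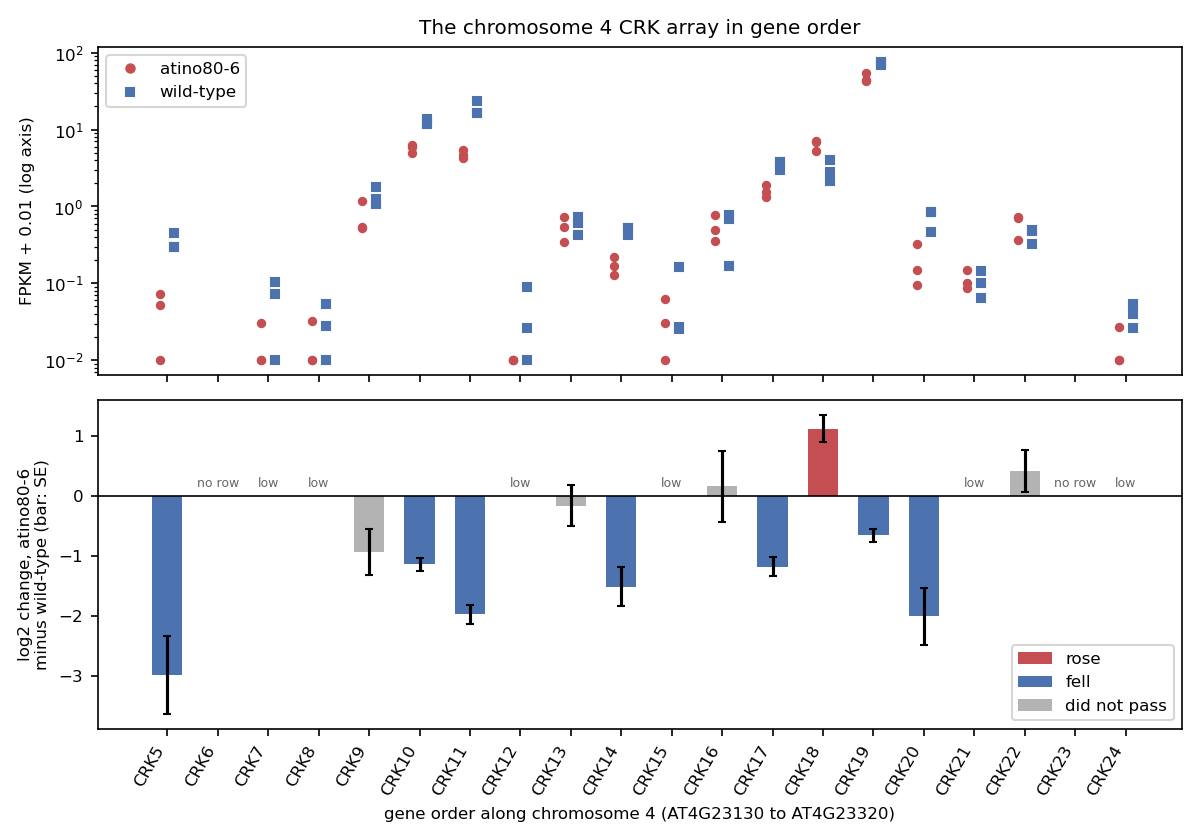
The 20 members of the chromosome 4 array in gene order, with FPKM plus 0.01 per library on a log axis (upper panel; circles, libraries labelled atino80-6; squares, wild type) and the log2 change with its standard error (lower panel; low, mean under 10 normalized counts). Bars point down in 7 members that fell, and CRK18 is the bar that rose. Of the 7, CRK5 reached the minimum mean through wild type alone.

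Outside the array 14 members were tested, of which 10 fell, 1 rose and 3 did not pass, with a median log2 change of -1.13. The shares over all tested genes were 16.6% lower and 17.7% higher. The 10 falls and the median include CRK31, which reached the minimum mean through wild type alone. CRK27 showed a steep fall and held 28, 24.9 and 12.5 normalized counts in atino80-6-labelled libraries, against 138, 161 and 143 in wild type. The groups stood 6.75-fold apart, with a log2 change of -2.77 ± 0.30 (limma adjusted p = 0.0002). CRK25 held 117, 108 and 166 normalized counts in atino80-6-labelled libraries, against 431, 562 and 539.6 in wild type. It was 3.93-fold lower, with a log2 change of -1.98 ± 0.18 (limma adjusted p = 8.6e-05), and its model overlaps the kinesin gene ATK5 by 492 bases on the opposite strand. ATK5 did not pass, at -0.43 (limma adjusted p = 0.24).

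CRK34 held 109.8, 98.6 and 146 normalized counts in atino80-6-labelled libraries, against 300.1, 459.8 and 426 in wild type. The fall was 3.35-fold, with a log2 change of -1.73 ± 0.20 (limma adjusted p = 0.00031). CRK31, in the same group of neighbouring loci, held 5.84, 7.97 and 10.2 normalized counts in atino80-6-labelled libraries, against 34.1, 37.1 and 42 in wild type. It was 4.71-fold lower at few counts (log2 change -2.13 ± 0.33). CRK31 reached the minimum mean through wild type alone, so a difference was built into its selection and no p-value is given for it. AT4G11500, which RefSeq lists as a transcribed pseudogene within that group, did not follow them, at -0.01 (16.4, 47.8 and 30.7 normalized counts in atino80-6-labelled libraries, against 45.5, 19.5 and 28 in wild type).

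CRK41, reported to act in salt responses, held 12.9, 14.9 and 14.8 normalized counts in atino80-6-labelled libraries, against 84.9, 57.6 and 77 in wild type. Its libraries labelled atino80-6 were close to each other and 5.15-fold below wild type, with a log2 change of -2.27 ± 0.25 (limma adjusted p = 0.00025). CRK36, which is known to bind the related kinase ARCK1 and to limit abscisic acid responses, held 5.84, 12.9 and 28.5 normalized counts in atino80-6-labelled libraries, against 115, 47.8 and 59.5 in wild type. That range was wide within both groups, yet the groups did not overlap and differed 4.72-fold (log2 change -2.31 ± 0.54, limma adjusted p = 0.011), or 7.91-fold without atino80-6 3. CRK26 held 22.2, 26.9 and 30.7 normalized counts in atino80-6-labelled libraries, against 80.5, 74.2 and 77 in wild type. It fell 2.90-fold with little spread (log2 change -1.51 ± 0.22, limma adjusted p = 0.00091).

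CRK2, CRK3, CRK28 and CRK29, the members with the highest mean counts outside the array, differed by less than 2-fold between the groups. CRK2, known to phosphorylate the NADPH oxidase RBOHD and to aid salt tolerance, held 548, 579 and 679 normalized counts in atino80-6-labelled libraries, against 997, 1035 and 1005 in wild type. It was 1.68-fold lower, with a log2 change of -0.75 ± 0.10 (limma adjusted p = 0.00047). CRK3, its neighbour, held 1244, 1404 and 1624 normalized counts in atino80-6-labelled libraries, against 1985, 1985 and 1988 in wild type. The wild type libraries lay close together, and the libraries labelled atino80-6 were 1.39-fold lower (log2 change -0.49 ± 0.10, limma adjusted p = 0.0057). CRK28, known to associate with BAK1 and the flagellin receptor FLS2, held 1106, 1126 and 1024 normalized counts in atino80-6-labelled libraries, against 1418, 1234 and 1301 in wild type. Its fall of 1.21-fold, with a log2 change of -0.28 ± 0.08 (limma adjusted p = 0.029), was the weakest call of the family. It was lost with the repeat number as a block (limma adjusted p = 0.059) and without wild type 1, wild type 3 or any 1 of the atino80-6 libraries (0.058 to 0.081), and without both wild type 1 and atino80-6 3 the change was -0.18 (0.079). CRK29, a close relative of CRK28, held 2170.5, 2010.1 and 2174 normalized counts in atino80-6-labelled libraries, against 1946, 2126 and 2426 in wild type. The groups overlapped, and the log2 change was -0.03 ± 0.09 (limma adjusted p = 0.84). The models of CRK28 and CRK29 overlap by 470 bases on the same strand. CRK42, the member on chromosome 5, rose and held 140.2, 134 and 141 normalized counts in atino80-6-labelled libraries, against 93.6, 95.7 and 98 in wild type. Both groups were tight and apart, 1.45-fold in the mean, with a log2 change of 0.53 ± 0.13 (limma adjusted p = 0.016), and the model overlaps AT5G40382 by 130 bases on the opposite strand.

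**Figure D3:**
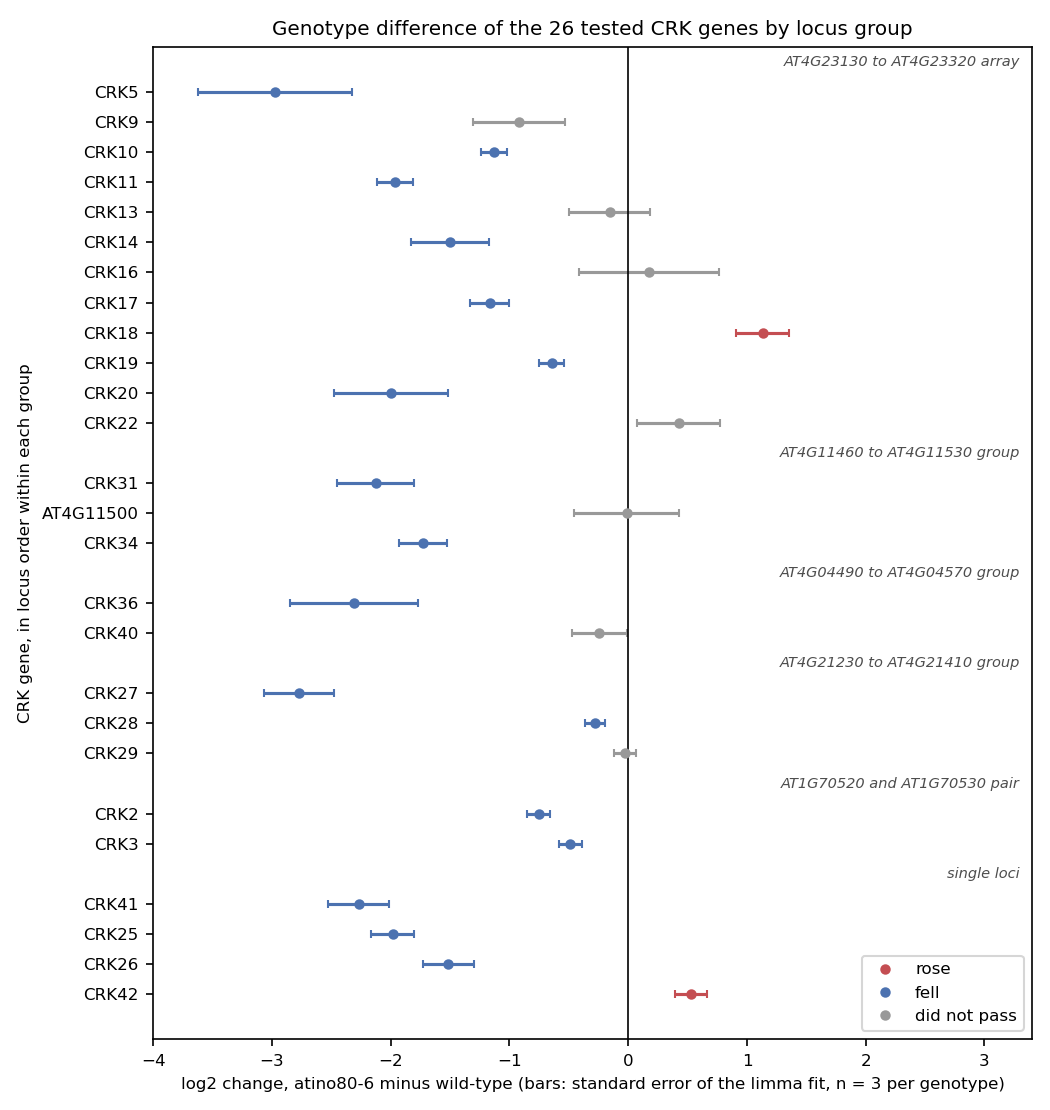
Log2 change of the 26 tested CRK genes (libraries labelled atino80-6 minus wild type; bars, standard error of the limma fit, n = 3 per genotype) by locus group. The 17 falls run from -2.97 for CRK5 to -0.28 for CRK28, and CRK18 and CRK42 lie on the right at 1.13 and 0.53. Of these, CRK5 and CRK31 reached the minimum mean through wild type alone.

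The remaining tested members did not pass. CRK9 held 11.7, 12 and 26.2 normalized counts in atino80-6-labelled libraries, against 40.2, 24.4 and 28 in wild type, a log2 change of -0.92 ± 0.39 (limma adjusted p = 0.1), and passed without atino80-6 3 (-1.28, limma adjusted p = 0.023). CRK13, whose overexpression is known to raise salicylic acid and resistance to bacteria, held 19.9, 41.8 and 30.7 normalized counts in atino80-6-labelled libraries, against 42, 24.4 and 35 in wild type. CRK16, CRK22 and CRK40 had log2 changes of 0.17, 0.42 and -0.24 (limma adjusted p = 0.84, 0.38 and 0.45). Their groups overlapped, as did those of all 7 members that did not pass.

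A further 11 listed members fell short of the minimum mean, with between 6 and 41 reads over the 6 libraries. The wild type mean was the higher in 7 of them and the mean of the libraries labelled atino80-6 in 4. CRK4, known like CRK19 for cell death when induced, had 8, 2 and 8 reads in the libraries labelled atino80-6 and 0 in wild type. With a floor of 3 reads over the wild type group it was at least 7.52-fold higher. CRK32 had 1 read in the libraries labelled atino80-6 and 19 in wild type, a 15.7-fold lower level (exact 95% interval 2.50 to 653). CRK39 had 3 and 18 reads, a 4.96-fold lower level (1.45 to 26.3). CRK7, which protects against oxidative damage from outside the cell, had 1 and 10, an 8.27-fold lower level (1.18 to 359). These intervals and the floor cover counting error only. CRK37 had 28 reads in the libraries labelled atino80-6 and 13 in wild type, and CRK21 had 18 and 20. CRK8, CRK12, CRK15, CRK24 and CRK30 had 0 to 4 reads in the libraries labelled atino80-6 and 4 to 12 in wild type. CRK1, CRK6, CRK23, CRK33 and CRK38 had no row and were not analysed here.

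Members of a family may share sequence. The share of 50-base windows of the exons found again elsewhere in the TAIR10.1 genome was below 5% in 16 of the 17 members that fell and 6.72% in CRK20. It reached 15.4% in CRK13 and 16.2% in CRK22, which did not pass, and 22.0% in CRK6, which had no row. The read length and the handling of reads with several matches are not given in the sources used here.

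Levels were compared between members per length, in FPKM (reads per kilobase of gene model, scaled for depth). CRK19 led with 46.9 ± 6.83 FPKM in atino80-6-labelled libraries and 73 ± 3.89 in wild type (SD, n = 3 each, here and in the next sentences). CRK29 followed with 36.4 ± 1.61 FPKM in atino80-6-labelled libraries and 37.2 ± 4.17 in wild type, and CRK3 with 25.5 ± 3.42 FPKM in atino80-6-labelled libraries and 35.6 ± 0.0313 in wild type. CRK11 and CRK10 gave 4.77 ± 0.556 FPKM in atino80-6-labelled libraries and 18.9 ± 4.06 in wild type, and 5.72 ± 0.665 FPKM in atino80-6-labelled libraries and 12.5 ± 0.890 in wild type. CRK18 gave 6.38 ± 0.994 FPKM in atino80-6-labelled libraries and 2.97 ± 0.923 in wild type. In wild type CRK18 thus ranked below CRK10 and CRK11, whereas in the libraries labelled atino80-6 its mean was above both, within the spread of CRK10. The 5 members with the highest FPKM over all libraries made up 81.0% of summed CRK FPKM in atino80-6-labelled libraries and 72.5% in wild type.

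In the authors' deposited table, 33 members had an adjusted p, of which 17 were lower and 3 higher at 0.05. Over all genes with an adjusted p there, 15.1% were lower and 16.1% higher. All 17 members that fell in limma were lower in the authors' deposited table and both that rose were higher, with CRK4 as the third. Log2 changes of the members that fell differed between the sources by at most 0.35, in CRK5.

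Genes of 6 lists, most of them from immune signalling, were set beside the family. The counts of each list below stand beside 16.6% of all tested genes that fell and 17.7% that rose. Of 13 pattern receptors and co-receptors, all tested, 8 fell and 0 rose, with a median log2 change of -0.40. SOBIR1, the co-receptor of receptor-like proteins, averaged 985 ± 112 normalized counts in atino80-6-labelled libraries and 2027 ± 111 in wild type (SD, n = 3 each), 2.06-fold lower (log2 change -1.04 ± 0.10, limma adjusted p = 8.6e-05). FLS2, the receptor of bacterial flagellin, was 1.51-fold lower, the chitin receptor gene LYK5 1.46-fold and the shared co-receptor gene BAK1 1.36-fold (limma adjusted p = 0.0074, 0.033 and 0.0029). Only 4 receptors passed when wild type 2 or atino80-6 2 was left out, and 5 when atino80-6 1 was, and the call of LYK5 was lost without any single library except wild type 3 or atino80-6 3. Among 14 kinases and oxidases downstream of receptors, 7 fell and 0 rose (median -0.25). AGC2-1, also known as OXI1 and activated by oxidative bursts, was 9.14-fold lower, with 21, 36.9 and 22.8 normalized counts in atino80-6-labelled libraries, against 469.8, 119 and 148 in wild type. Wild type 1 was high, and without it AGC2-1 was 4.96-fold lower. The NADPH oxidase gene RBOHF was 1.74-fold lower, the calcium-dependent kinase gene CPK5 1.54-fold and the MAP kinase gene MPK3 1.49-fold (limma adjusted p = 0.0009, 0.0015 and 0.0032).

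In the list of salicylic acid synthesis and signalling, 12 of 16 genes were tested, 7 fell and 1 rose (median -0.73). CBP60G, a transcription factor that switches on salicylic acid synthesis, averaged 501 ± 132 normalized counts in atino80-6-labelled libraries and 1514 ± 474 in wild type (SD, n = 3 each), 3.02-fold lower (log2 change -1.58 ± 0.24, limma adjusted p = 0.0014). SAG101, a partner of EDS1 in immunity, was 2.54-fold lower (limma adjusted p = 7.9e-05). FMO1, which makes the mobile immune signal N-hydroxypipecolic acid, was 3.62-fold lower (log2 change -2.04 ± 0.65, limma adjusted p = 0.04), with -1.30 without atino80-6 1 (limma adjusted p = 0.08) and -3.10 without both wild type 1 and atino80-6 3. Its fold was 5.90 without atino80-6 3. Its call was lost without any single library except wild type 1 or atino80-6 3. PR1, a widely used marker of salicylic acid responses, went the other way with 86.4, 171 and 274 normalized counts in atino80-6-labelled libraries, against 10.5, 21.5 and 6.12 in wild type, 14-fold higher (log2 change 3.71 ± 0.50, limma adjusted p = 0.0007), or 21.3-fold without wild type 2.

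The list of WRKY factors had 10 tested genes, of which 6 fell and 0 rose (median -1.05). WRKY53 held 22.2, 43.8 and 38.7 normalized counts in atino80-6-labelled libraries, against 309, 165 and 136 in wild type, and was 5.82-fold lower (log2 change -2.47 ± 0.35, limma adjusted p = 0.00089). WRKY33, a factor of camalexin synthesis, averaged 835 ± 92 normalized counts in atino80-6-labelled libraries and 2827 ± 548 in wild type (SD, n = 3 each), 3.39-fold lower (log2 change -1.75 ± 0.14, limma adjusted p = 3.7e-05). WRKY46 and WRKY29 were 2.32-fold and 2.52-fold lower (limma adjusted p = 0.0085 and 0.019). Without wild type 1, which was high for WRKY29, its log2 change was -0.80 (-1.22 with it), and the call was lost without atino80-6 2 (limma adjusted p = 0.075).

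Genes induced early by patterns and stress showed 7 falls and 2 rises among 13 tested (median -1.05). CYP81F2, an enzyme of indole glucosinolate defence, was 5.13-fold lower and the receptor kinase gene FRK1 3.71-fold (limma adjusted p = 0.00012 and 0.0012). CYP81D8 held 320.1, 346 and 277 normalized counts in atino80-6-labelled libraries, against 4133, 669 and 938 in wild type, a 6.09-fold lower mean that was 2.56-fold lower without wild type 1. Its log2 change of -2.13 was -1.34 without wild type 1 and -1.25 without both wild type 1 and atino80-6 3. PHI-1 rose 4.11-fold (limma adjusted p = 2.6e-05). Summed, this list held between 11420.1 and 13563 normalized counts in atino80-6-labelled libraries. Wild type 1 held 23566, and the lowest wild type sum was 13294. For the CRK sum wild type 1 was neither the highest nor the lowest of its group. Yet it was the highest wild type library in 9 of the 17 CRK members that fell (52.9%), against 30.9% of all genes that fell. The part of wild type 1 in the CRK result was not tested, and without it the CRK counts were 16 lower and 2 higher.

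Other DUF26 proteins, a list of CRK43 to CRK46, the plasmodesmal PDLP1 to PDLP8 and CRRSP38, did not show the family's median. Of 10 tested, 3 fell and 1 rose, with a median log2 change of 0.05, where 16.6% of all tested genes fell and 17.7% rose. HWI1, also known as PDLP5, a plasmodesmal protein that restricts traffic between cells, was 2.01-fold lower, PDLP6 1.39-fold lower and the kinase gene AT1G70740 1.58-fold lower (limma adjusted p = 0.011, 0.03 and 0.0057). The call of PDLP6 was lost when any single library other than wild type 1 or atino80-6 3 was left out (0.063 to 0.12). AT3G22060, a secreted DUF26 protein gene, rose 1.99-fold (limma adjusted p = 0.0096). Among the kinase genes CRK43 to CRK46 of this list, AT1G70740 fell and ARCK1 did not pass (log2 change -0.95 ± 0.38, limma adjusted p = 0.084). The others were below the minimum mean. AT4G00960 had 6 reads in the libraries labelled atino80-6 and 41 in wild type, and AT4G28670 had 3 and 0. The difference between these lists and the CRK genes was not tested.

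**Figure D4:**
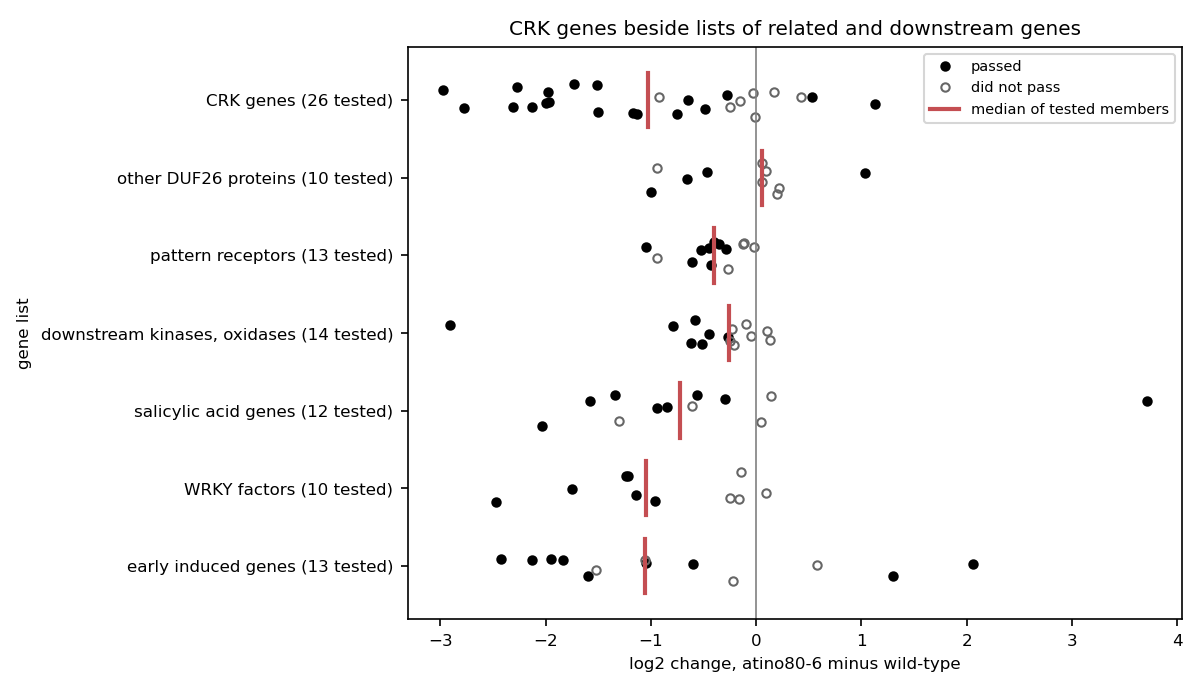
Log2 change (libraries labelled atino80-6 minus wild type) of each tested gene in the CRK family and 6 lists, with filled points for genes that passed and a bar at the median of tested members. The CRK median of -1.03 lies near those of the WRKY factors (-1.05) and the early induced genes (-1.05). It includes CRK5 and CRK31, and over the 24 members with both group means of at least 10 it was -0.84. The median of the other DUF26 proteins lies at 0.05.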

How the data were processed

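Per the submitters' processing notes, HISAT2, featureCounts, SAMtools, DESeq2, cutadapt, deepTools and FastQC were used with the TAIR10 build; roles and versions are not given in the sources used here. The authors deposited FPKM values per library, a unit read from the values, and a comparison of the genotypes that holds, per the file headers, a mean signal (normalized count), log2 fold changes, a score (change over error) and p-values. The tests had been planned for normalized counts, which were recovered gene by gene, by scaling FPKM so that the mean over libraries equals the deposited mean signal. With the libraries' size factors, 146922 of 146922 recovered values were whole reads within 0.01.

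Log2(normalized count + 1) was fitted with limma 3.58.1 in R 4.3.3 on genotype (empirical Bayes with a trend, two-sided). P-values were adjusted by Benjamini-Hochberg over 20222 genes with a mean of at least 10, with a threshold of 0.05. The fit was also run on simulated counts with few changed genes and the same relative spread beyond counting error in every gene. That setting is simpler than these data, so it does not measure the error of the calls here. Folds are ratios of group means of normalized counts, but those given with an exact interval are ratios of summed reads scaled for depth. Each log2 change is given ± its standard error. Loci were named from RefSeq TAIR10.1 (24255 of 24487 matched, 99.1%); the builds differ in name, so no coordinates are printed, and promoters and windows were read from RefSeq by its own gene starts. Other steps ran in Python 3.11.15 (scipy 1.17.1 for intervals, pandas 2.3.3, matplotlib 3.10.9). Members, lists and tests were chosen with earlier results of these data known. Members past the threshold with the 12 largest changes, members with a mean of at least 200 and up to 4 genes past the threshold per list are given in full; other members were named because every member is accounted for. Replicates were not paired. BGL2 and PR5 of the salicylic acid list were not analysed here.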

Additional observations from a re-analysis of the deposited data

How the results depend on the processing

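In 18 alternative fits (quantile normalization, TMM factors, equal totals, limma voom, pseudocounts of 0.5 and 5, a higher minimum mean of 50 or none, FPKM as deposited, robust moderation, a replicate block, each library left out, and wild type 1 and atino80-6 3 left out together) the CRK members that fell numbered 15 to 18, except 11 of 15 tested with a mean of at least 50, a setting that tests fewer genes. Those that rose numbered 2, or 3 with no filter. Leaving out single libraries gave 15 to 17 lower and 2 higher. The median change was -0.50 with FPKM as deposited. That fit added 1 to FPKM before log2, and low members such as CRK31 had means of 0.155 FPKM in atino80-6-labelled libraries and 0.731 in wild type. Its median is therefore not on the scale of the main fit. With the replicate block 16 members fell and 2 rose; same-numbered libraries deviated from their group means with correlations of 0.03, -0.19 and -0.10, so the numbers were not taken to pair them. Pattern receptors that fell numbered 4 to 9 without single libraries. Sign changes were seen in 4 members that had not passed. CRK13 ranged from -0.40 to 0.12, CRK16 from -0.49 to 0.55, CRK29 from -0.10 to 0.057 and AT4G11500 from -0.37 to 0.38 without single libraries. The log2 change of AT4G11500 was also 0.0041 with TMM factors, 0.026 with limma voom, 0.0036 with FPKM as deposited and 0.25 without both wild type 1 and atino80-6 3. The cause was not tested. In the 250 bases before the start alone, TTGAC was in 73.2% of CRK promoters, TGACG in 31.7% and CACGTG in 2.44%. Over all protein-coding genes the shares in that window were 44.9%, 18.6% and 6.49%. Depth limits the 11 members below the minimum mean, since 3 reads in a library stood for at least 2.62 normalized counts.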

Other observations

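Genes beside the chromosome 4 array were read by the same fit, chosen for position. Of the 5 protein-coding genes on each side, 3 were listed. GSH1, the first enzyme of glutathione synthesis, averaged 5072 ± 288 normalized counts in atino80-6-labelled libraries and 7402 ± 378 in wild type (SD, n = 3 each) (log2 change -0.55 ± 0.08, limma adjusted p = 0.0012). AT4G23340 averaged 2.51 ± 2.31 normalized counts in atino80-6-labelled libraries and 20.9 ± 13.2 in wild type (SD, n = 3 each), and AT4G23330 averaged 461 ± 31.1 normalized counts in atino80-6-labelled libraries and 453 ± 18.2 in wild type (SD, n = 3 each) (log2 change 0.02 ± 0.09, limma adjusted p = 0.86). Within the array, AT4G23271, which overlaps CRK19 by 102 bases on the opposite strand, averaged 7.68 ± 3.41 normalized counts in atino80-6-labelled libraries and 25.2 ± 10.7 in wild type (SD, n = 3 each), and reads of CRK19 and AT4G23271 cannot be told apart there if strand was not kept. AT4G23340 and AT4G23271 reached the minimum mean through wild type alone, so a difference was built into their selection and no test is given for them. The pseudogene AT4G23215 averaged 11.3 ± 4.96 normalized counts in atino80-6-labelled libraries and 17.4 ± 5.07 in wild type (SD, n = 3 each) (limma adjusted p = 0.3).

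Among the 17 members that fell, atino80-6 3 was the highest of its group in 12 (70.6%) and wild type 1 in 9 (52.9%). Over all 3351 genes that fell, the shares were 62.7% and 30.9%.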
